A study of Mus musculus with 22 samples.

Results

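Insig1, Srebf2 and 6 enzymes of cholesterol synthesis (Hmgcs1, Sqle, Idi1, Fdft1, Cyp51 and Lss) were followed in RNA sequencing of the mouse brain. These are 8 of the 24421 genes in the count tables, and they were found by their symbols in the tables of both sexes. The list was drawn up because Insig1 was lower in dominant than in submissive females, and the comparison of interest was whether the rest of the pathway was lower with it. The female contrast of rank therefore chose the genes, and the female values of the 8 genes are a description, in which counts of calls are printed beside the share of all genes and nothing is read from them. The male contrast was not used in the choice and was tested.

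Total RNA of the right brain hemisphere was sequenced from 22 mice of the inbred strain C57BL/6JOlaHsd (C57B6/J OlaHsd in the labels), with no treatment, transgene or deletion named for any group. Groups were dominant males (n = 7), submissive males (n = 7), dominant females (n = 4) and submissive females (n = 4), ranked at 10 to 12 weeks of age by the tube test, in which the mouse that backs out of a narrow tube loses. Cage mates (1 dominant and 1 submissive mouse per cage of 4) carry the same replicate number, so that each group holds 1 mouse per cage. Female replicates 3 and 4 carry the labels Gr1 and Gr2 in place of cage numbers, and taking mice of 1 such label as mates of 1 cage is an assumption in every count over 4 female cages, because the study's methods state that female mice of intermediate rank were regrouped and tested again. The sexes have separate count tables and different prefixes in their library names, so that sex and whatever these prefixes stand for cannot be told apart, and levels of males and females are only set side by side.

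The brain makes nearly all of its cholesterol itself, because the lipoproteins of the blood do not cross the blood-brain barrier, and much of it goes into myelin and the membranes of astrocytes and neurons. The transcription factor SREBP2, encoded by Srebf2, is held in the endoplasmic reticulum by its escort SCAP and the retention protein INSIG1 while sterols are plentiful. When sterols fall, SCAP carries SREBP2 to the Golgi apparatus, where proteases release the active factor, which then binds sterol regulatory elements and raises transcription of the synthesis enzymes and of Insig1 and Srebf2 themselves. Insig1 mRNA is thus both a brake on the pathway and one of its outputs. Of the enzymes, Hmgcs1 makes HMG-CoA from acetyl units, Idi1 interconverts the isoprenoid building blocks, Fdft1 joins farnesyl groups into squalene, Sqle oxidises squalene, Lss closes the ring to lanosterol, and Cyp51 removes a methyl group from lanosterol.

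The counts cover the exons of each gene on mm10. Insig1 lies at chr5:28071412-28078662 and Srebf2 at chr15:82147269-82204960, both on the plus strand. Of the enzymes, Hmgcs1 (chr13:119690351-119708260), Idi1 (chr13:8885606-8892396), Sqle (chr15:59315092-59331193) and Lss (chr10:76531605-76557139) lie on the plus strand, and Fdft1 (chr14:63145151-63179578) and Cyp51 (chr5:4080674-4104697) on the minus strand.

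The sequences before 3 of the genes are shown, those of Hmgcs1 and Srebf2 because they hold matches to the motif that SREBP2 is known to bind, and that of Insig1 because the gene chose the list. They come from RefSeq on GRCm38.p6, the build called mm10, and 6 of the 8 genes had an entry (Insig1, Srebf2, Hmgcs1, Idi1, Cyp51 and Lss). Each runs 5′ to 3′ on the strand of the gene over the 250 bases before its annotated start. Capitals mark matches on either strand to TCACNCC, used for the core of the sterol regulatory element, and to CCAAT, the motif of NF-Y, which appears as its reverse complement where it lies on the other strand. The windows are chr5:28071162-28071411 for Insig1, chr15:82147019-82147268 for Srebf2 and chr13:119690101-119690350 for Hmgcs1, all on the plus strand.
Insig1: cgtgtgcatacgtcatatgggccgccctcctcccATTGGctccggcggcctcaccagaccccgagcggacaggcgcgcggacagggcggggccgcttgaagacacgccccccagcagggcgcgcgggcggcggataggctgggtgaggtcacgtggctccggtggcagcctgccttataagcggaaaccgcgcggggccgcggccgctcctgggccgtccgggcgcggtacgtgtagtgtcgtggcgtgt
Hmgcs1: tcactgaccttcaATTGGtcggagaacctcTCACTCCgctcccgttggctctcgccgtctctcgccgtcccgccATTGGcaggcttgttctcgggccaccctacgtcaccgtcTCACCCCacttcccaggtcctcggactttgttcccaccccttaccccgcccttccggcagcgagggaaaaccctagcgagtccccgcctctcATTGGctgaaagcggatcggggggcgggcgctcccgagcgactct
Srebf2: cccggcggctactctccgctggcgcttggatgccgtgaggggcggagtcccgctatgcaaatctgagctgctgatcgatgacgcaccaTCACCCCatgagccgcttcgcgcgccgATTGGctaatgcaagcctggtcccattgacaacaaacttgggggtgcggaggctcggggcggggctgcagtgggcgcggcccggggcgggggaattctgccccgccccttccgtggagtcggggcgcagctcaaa
The Hmgcs1 window held 2 matches to the sterol regulatory element core, at -220 to -214 and -137 to -131 from the start, and 3 matches to CCAAT. Srebf2 held 1 core match at -162 to -156 with a CCAAT match at -135 to -131. No core match lay in the windows of Insig1, Idi1, Cyp51 and Lss, which says only that these letters are not in these bases. Among 32817 promoters of the same length, 13.4% held the core, 33.8% held CCAAT and 4.4% held both, against 2, 6 and 2 of the 6 genes. GGGCGG, the motif of Sp1, was found before all 6 genes and in 32.7% of promoters, and the E-box CACGTG before Insig1 alone of the 6 and in 6.02% of promoters. The searched motifs share no positions in these 6 windows. The map of motif matches shows how they are spaced.

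**Figure D1:**
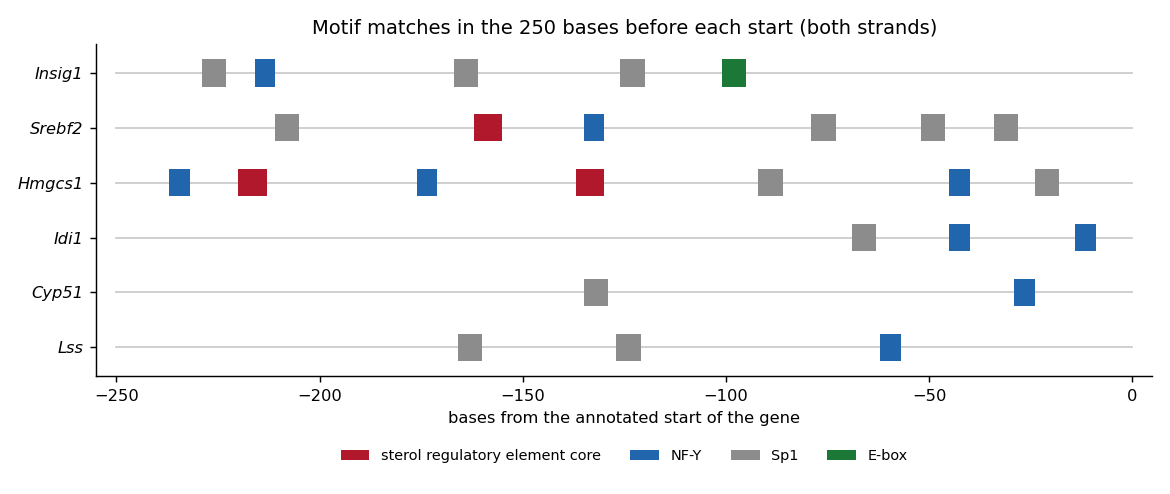
Positions of motif matches (both strands) in the 250 bases before the annotated start of 6 genes, in bases from the start. Red marks the sterol regulatory element core, blue NF-Y, grey Sp1 and green the E-box. Red boxes lie before Srebf2 (1) and Hmgcs1 (2), and blue boxes before all 6 genes.

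All 8 genes were expressed in every hemisphere. Levels between genes were compared per exon length, as RPKM (CPM, the scaled read count, divided by kilobases of exon). Hmgcs1 was highest in both sexes, at 126.4 ± 8.61 RPKM in females (SD, n = 8) and 112.5 ± 4.53 in males (SD, n = 14), and no sample of any other member reached its range. Insig1 came next, at 36.8 ± 3.30 RPKM in females and 39.7 ± 3.39 in males, above every sample of the following gene. Sqle (29.0 RPKM in females, 31.1 in males) and Cyp51 (25.5 and 27.4) overlapped each other. Fdft1 (20.8 and 21.7) and Srebf2 (18.1 and 21.2) overlapped each other as well. Lss, at 6.85 and 7.45 RPKM, and Idi1, at 3.05 and 2.94, were lowest and clear of their neighbours. The order of the 8 genes was the same in both sexes.

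Read depth limited Idi1. It had 106 to 166 counted reads per female and 102 to 138 per male, for which counting error alone gives a coefficient of variation of 8.5% and 9.15%, as large as the variation within groups (8.43% and 6.86%). The other 7 genes had at least 498 counted reads in every sample. Insig1 had 1193 to 1829, and its variation within groups was 5.59% in females and 8.43% in males against 2.55% and 2.59% from counting. Srebf2 varied by 10.2% within male groups against 4.77% within female groups. Exon bases of Fdft1 (773 of 3697, shared with Ctsb) and Lss (381 of 6329, shared with 4930483K19Rik) overlap a gene on the opposite strand. The strand setting of the counting is not given in the sources used here, so the counts of these 2 genes are uncertain, by an amount that the share of bases does not give.

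The plot of levels by group shows CPM (counted reads scaled to a common library size with TMM factors) of each gene in each mouse.

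**Figure D2:**
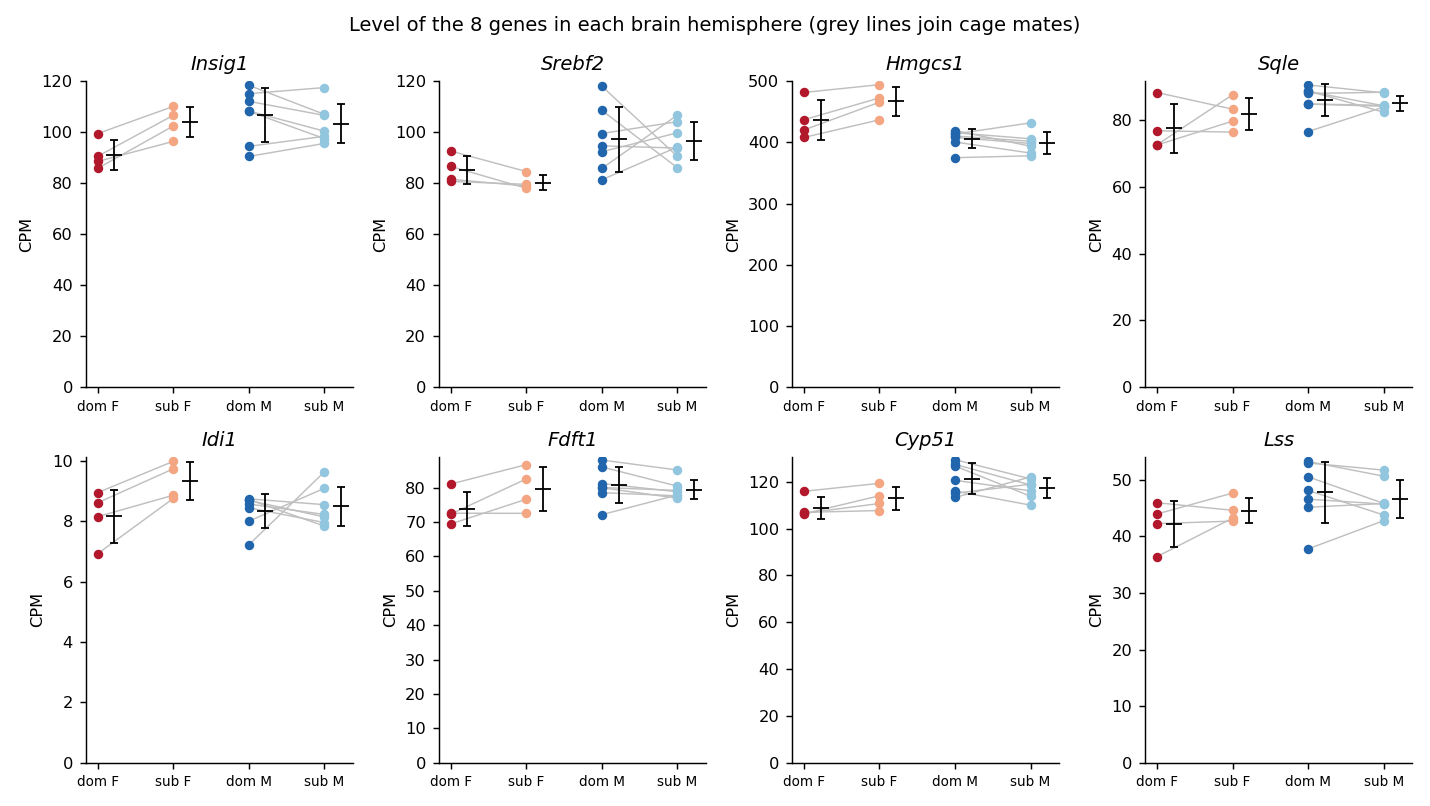
CPM of the 8 genes in dominant (dom) and submissive (sub) females (F) and males (M), with axes from 0. Points are mice, grey lines join cage mates, and black marks give mean and SD (n = 4 or 7). Insig1 falls below the cage mate in all 4 dominant females, and no gene separates the ranks without overlap.

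In females, Insig1 was lower in the dominant mouse of all 4 cages, and 7 of the 8 genes had a fold change below 0, against 50.9% of all genes. Srebf2 had one above 0. Differences were small, between -0.19 and 0.09 on the log2 scale, and the ranges of dominant and submissive females overlapped for all 8 genes, while 2.66% of all genes were lower and 2.93% higher without overlap. These values are a description, since Insig1 was chosen on this contrast. As all samples are bulk tissue, fewer cells of a type and less RNA per cell cannot be told apart.

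Insig1 stood at 88.5, 90.5, 85.8 and 99.5 CPM in dominant females 1 to 4 and at 96.4, 106.6, 102.4 and 110.1 CPM in submissive females 1 to 4. Only dominant female 4 reached into the submissive range, and its own cage mate was the highest of all 8 mice. The log2 fold change (dominant minus submissive) was -0.19 ± 0.047 (SE), a difference of -12.3%, with cage differences of -8.15%, -15.1%, -16.2% and -9.67%. Its fold change was lower than that of all but 5.99% of the genes tested.

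Hmgcs1, the most abundant member, stood at 437, 420.2, 408 and 481.5 CPM in dominant females against 472.5, 465.5, 436.8 and 494.2 CPM in submissive females. It was lower in the dominant mouse of all 4 cages, by -7.51%, -9.73%, -6.59% and -2.57%, with a log2 fold change of -0.10 ± 0.044 (SE). The 4 cages shared the direction, but differences between cages were as large as those between ranks, since dominant female 4 exceeded 3 of the 4 submissive females.

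Idi1, the lowest of the 8, had a fold change as large as that of Insig1, at -0.19 ± 0.097 (SE), from 8.16, 8.62, 6.93 and 8.95 CPM in dominant females and 8.87, 9.74, 8.76 and 9.99 CPM in their submissive mates. As given above, its variation within groups was no larger than that of counting. Cyp51 was also lower in the dominant mouse of all 4 cages, but by only -0.743% to -6.75%, with a log2 fold change of -0.05 ± 0.040 (SE). Its levels were 106.5, 106.3, 106.9 and 115.9 CPM against 110.7, 114, 107.7 and 119.3 CPM.

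Fdft1 had a log2 fold change of -0.11 ± 0.054 (SE) and was lower in the dominant mouse of 3 cages. In cage 1, dominant (72.53 CPM) and submissive (72.5 CPM) females were level, and in the other cages the difference was -12.4%, -9.36% and -6.51%. Lss (-0.08 ± 0.061) was lower in 3 of 4 cages and Sqle (-0.08 ± 0.056) in 2 of 4. For both genes dominant female 4 lay above its cage mate, at 45.9 against 44.6 CPM for Lss and 88.2 against 83.2 CPM for Sqle. Dominant female 4 had the highest level among dominant females for all 8 genes.

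Srebf2 was the exception. It stood at 80.8, 81.6, 86.6 and 92.7 CPM in dominant females and 79.6, 78.9, 78.1 and 84.6 CPM in their submissive mates, higher in the dominant mouse of all 4 cages, with a log2 fold change of 0.09 ± 0.045 (SE). Cage differences were 1.46%, 3.33%, 11% and 9.5%.

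With edgeR, 14 of 14865 genes tested in females were called at an adjusted p under 0.05 (0.0942% of genes, with 0.0202% lower and 0.074% higher in dominant females), and 0 of the 8 members were among them. Insig1 was called when the cage was added as a block, at the same fold change (-0.19), and in that fit 0.0605% of genes were called lower. DESeq2 also called Insig1 alone of the 8, among 5 genes lower in dominant females (0.0926% of those with an adjusted p). At an unadjusted p under 0.05, 2 members were lower (Insig1 and Hmgcs1), against 4.08% of genes, and 0 were higher, against 6.43%. Lower in every cage were 4 members (Insig1, Hmgcs1, Idi1 and Cyp51), against 8.82% of genes, and higher in every cage was 1 (Srebf2), against 8.72%. The median log2 fold change of the 8 was -0.09, against -0.002 over all genes tested. Nothing is read from these counts, since the contrast that chose the list gave them, and because the members vary together between mice they are not independent observations.

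In males, none of the 8 genes passed the test between ranks. The edgeR test called 0 of 8 members and 0 of 14737 genes (0% of genes), each member had an adjusted p of 1.00, and 0 of 8 had an unadjusted p under 0.05, against 0.658% of genes in each direction. DESeq2 called 0 members as well. The 95% intervals give the size that these 14 mice leave possible in the main fit, which leaves out the pairing of cage mates. With the cage as a block, the SE of the log2 fold change was smaller for most members. It was 0.037 against 0.061 for Insig1 and 0.042 against 0.067 for Lss. For Srebf2 (0.072 in both) and Idi1 (0.079 against 0.069) it was not smaller.

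Insig1 ranged from 90.5 to 118.4 CPM in dominant males (median 108.3) and from 95.6 to 117.5 CPM in submissive males (median 100.4). The log2 fold change was 0.05 ± 0.061 (SE), with a 95% interval from -0.08 to 0.17. The dominant mouse was lower in 3 of 7 cages. Whether rank acts differently in the sexes was not tested.

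Hmgcs1 ranged from 374.9 to 419.2 CPM (median 410.4) in dominant and from 378 to 431.8 CPM (median 398.1) in submissive males, a log2 fold change of 0.03 ± 0.036 (SE; 95% interval -0.05 to 0.10). Cyp51 had the highest fold change of the 8, 0.05 ± 0.039 (SE; -0.03 to 0.13), and was higher in the dominant mouse of 5 of 7 cages. Fdft1 (0.03 ± 0.042), Sqle (0.02 ± 0.038) and Lss (0.04 ± 0.067) lay as close to 0. Idi1, at -0.03 ± 0.069, was the one member below 0. The groups overlapped for all 8 genes (0.00679% of genes were lower without overlap). No member was lower in every cage (0.394% of genes) or higher in every cage (0.59%), and 1 of the 8 had a fold change below 0 against 51.4% of genes.

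Srebf2 varied most among males, from 81.4 to 118.1 CPM in dominant (median 94.7) and from 86.1 to 106.8 CPM in submissive mice (median 94.2). Cage differences ran in both directions, from -19.6% to 30.5%, and the log2 fold change was 0.01 ± 0.072 (SE; 95% interval -0.14 to 0.16). The highest sample was dominant male 1. This library had 10.6 CPM summed over 4 cerebellum markers, against 157.8 to 316.1 CPM in the other 6 dominant males and 164.1 to 314.8 CPM in submissive males. Without it, the log2 fold change of Srebf2 was -0.04 and that of Insig1 0.07, both with an adjusted p of 1.00 in edgeR. Over the 14 males, after removal of group means, Srebf2 had r = -0.718 with the summed cerebellum markers, -0.6 with astrocyte, -0.553 with endothelium and 0.635 with neuron markers, and without dominant male 1 these were -0.694, -0.356, -0.483 and 0.502. Insig1 had r = 0.331 with the cerebellum markers and 0.588 with the astrocyte markers, and -0.296 and 0.459 without that mouse. With the summed microglia markers, r was 0.269 for Insig1 and 0.676 for Hmgcs1, and 0.745 and 0.832 without it. In the 8 females, r with microglia markers was -0.344 for Insig1 and -0.784 for Hmgcs1, opposite in sign to males. Insig1 had -0.492 with astrocyte markers, also opposite, and -0.641 with cerebellum markers. Srebf2 kept its signs in females with the lists given above for it. Its r was -0.407 for cerebellum, -0.481 for astrocyte, -0.615 for endothelium and 0.634 for neuron markers. These r are descriptions of libraries in which all lists share 1 total, and the part of these tissues in the result was otherwise not tested.

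**Figure D3:**
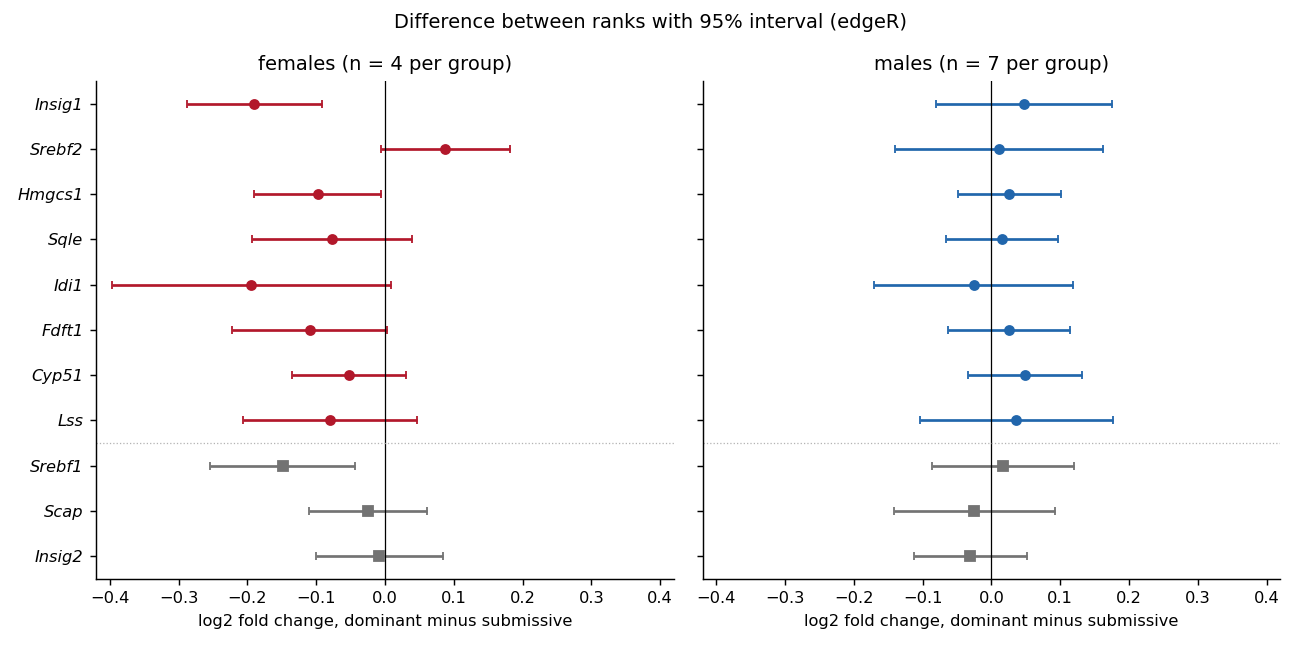
Log2 fold change (dominant minus submissive) with 95% interval from edgeR, for the 8 genes (circles) and 3 further pathway genes (grey squares), in females (left, n = 4 per group) and males (right, n = 7 per group). Female values of the 8 genes are a description. Male intervals all include 0, and the female points lie left of 0 except that of Srebf2.

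Over all males, the correlation with Insig1 passed the test for 3 of the enzymes, but none passed after adjustment when cage means were removed. Within cages 1 to 4 or within cages 5 to 7 alone, none passed after adjustment either. Correlations of log2 CPM with Insig1 were computed over the 14 males for the 7 other genes, with a two-sided permutation test and adjustment over these 7 relations. The test exchanged all 14 males freely, although males of cages 1 to 4 and of cages 5 to 7 differed over all genes. Its p-values over all males can therefore be too small. Cage mates are not fully independent samples, and genes within a library share its depth and tissue composition. Each r over the 14 males is therefore set beside the share of genes that reach it. This share is taken over the 10328 other genes with a mean of at least 10 CPM that passed the filter in both sexes. Idi1 itself lay under that level.

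Fdft1 was closest to Insig1, with r = 0.883 (permutation p = 1e-05, the smallest that these permutations can give, adjusted p = 7e-05) and rho = 0.881 (permutation p = 7e-05, adjusted p = 0.00049). Only 0.136% of genes had an r as high. Hmgcs1 had r = 0.826 (permutation p = 0.00031, adjusted p = 0.000723) and rho = 0.824 (permutation p = 0.00044, adjusted p = 0.00135), and 1.05% of genes had an r as high. Sqle had r = 0.804 (permutation p = 0.00017, adjusted p = 0.000595) and rho = 0.807 (permutation p = 0.00058, adjusted p = 0.00135), reached by 1.77% of genes. These 3 enzymes thus stood among the genes nearest to Insig1.

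The other 4 genes did not pass the test, and the share of genes with an r as high was 26.8% for Cyp51, 41.4% for Lss, 51.8% for Idi1 and 71.7% for Srebf2. Cyp51 had r = 0.428 (permutation p = 0.124, adjusted p = 0.217) and rho = 0.512 (permutation p = 0.0654, adjusted p = 0.114), and Lss had r = 0.203 (permutation p = 0.492, adjusted p = 0.574) and rho = 0.116 (permutation p = 0.694, adjusted p = 0.809). Idi1, measured with few reads, had r = 0.0317 (permutation p = 0.917, adjusted p = 0.917) and rho = 0.011 (permutation p = 0.975, adjusted p = 0.975). Srebf2, which encodes the factor that drives the others, had r = -0.353 (permutation p = 0.217, adjusted p = 0.303) and rho = -0.332 (permutation p = 0.248, adjusted p = 0.348).

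Insig1 had different ranges in sets of male cages. It ranged from 90.5 to 108.3 CPM in cages 1 to 4 (8 mice, by replicate number) and from 106.6 to 118.4 CPM in cages 5 to 7 (6 mice). Fdft1 moved likewise, with 72.1 to 80.0 CPM in the first set and 78.8 to 88.0 CPM in the second. Within cages 1 to 4, r with Insig1 was 0.738 for Fdft1 (exact permutation p = 0.0244), 0.681 for Hmgcs1 (exact permutation p = 0.0648) and 0.846 for Sqle (exact permutation p = 0.00818). Within cages 5 to 7, r was 0.875 for Fdft1 (exact permutation p = 0.0444), 0.82 for Hmgcs1 (exact permutation p = 0.0236) and 0.653 for Sqle (exact permutation p = 0.164). Cyp51 and Lss, which did not pass over all males, had within the sets r of 0.805 (exact permutation p = 0.0184) and 0.662 (exact permutation p = 0.0737) in the first and 0.719 (exact permutation p = 0.114) and 0.712 (exact permutation p = 0.115) in the second. The direction of these 5 genes held in both sets, and after adjustment over the 7 relations no gene passed in either.

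With cage means removed, which leaves only the differences between cage mates, r was 0.698 for Fdft1, 0.737 for Hmgcs1 and 0.764 for Sqle, and it rose to 0.772 for Cyp51 and 0.786 for Lss. An exact permutation test that exchanged mates within the 7 cages, whose smallest p is 0.0156, gave p = 0.0781, 0.0625, 0.0625, 0.0312 and 0.125, none passing after adjustment (lowest adjusted p = 0.137). Without dominant males 1 and 2, the samples farthest from the median of Insig1, r was 0.862 for Fdft1, 0.895 for Hmgcs1, 0.771 for Sqle, 0.286 for Cyp51, -0.000693 for Lss, -0.206 for Idi1 and -0.305 for Srebf2.

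In females, the deviations from group means were correlated with Insig1 for all 7 genes (n = 8, given as a description), from r = 0.632 for Srebf2 to 0.977 for Fdft1. Idi1 (0.815), Lss (0.742) and Cyp51 (0.831) were among them. Srebf2 thus had a positive r in females and a negative one in males. With 8 mice in 4 cages and a mean removed for each rank, these values rest on few independent mice.

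**Figure D4:**
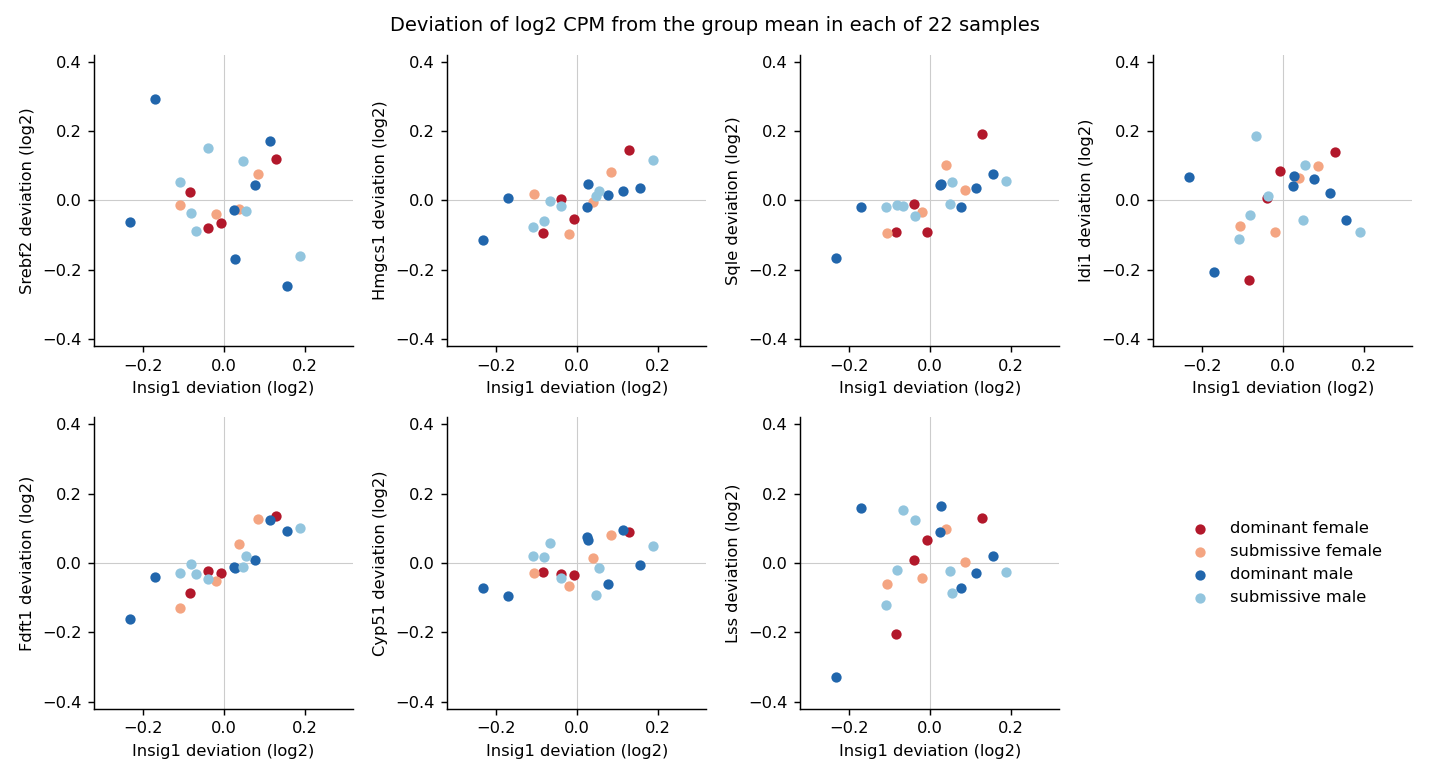
Deviation of log2 CPM from the mean of the sample's group for Insig1 (x axis) and each of the other 7 genes (y axis) in 22 mice, coloured by group. Points for Fdft1, Hmgcs1 and Sqle run along a rising line, whereas those of Srebf2 and Idi1 scatter.

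Ordered by likeness to Insig1 over all 22 samples (Pearson r of log2 CPM after removal of group means, 10328 other genes with a mean of at least 10 CPM), the nearest 5 genes were Fen1 (r = 0.915), which encodes a flap endonuclease of DNA replication and repair, Fdft1 (0.861), Degs1 (0.852), a desaturase of ceramide synthesis, Msmo1 (0.847), an enzyme that acts after Cyp51 in sterol synthesis, and Nme1 (0.821), a nucleoside diphosphate kinase. Sqle took place 83 (r = 0.746), Hmgcs1 place 134 (0.728), Cyp51 place 1521 (0.496), Lss place 3077 (0.307) and Srebf2 place 6912 (-0.218). Idi1 lay under 10 CPM and has no place. High correlations were common in these data. An r of at least 0.5 was reached by 14.4% of genes and of at least 0.7 by 2.19%, and 14.7% had an r of -0.5 or below.

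**Figure D5:**
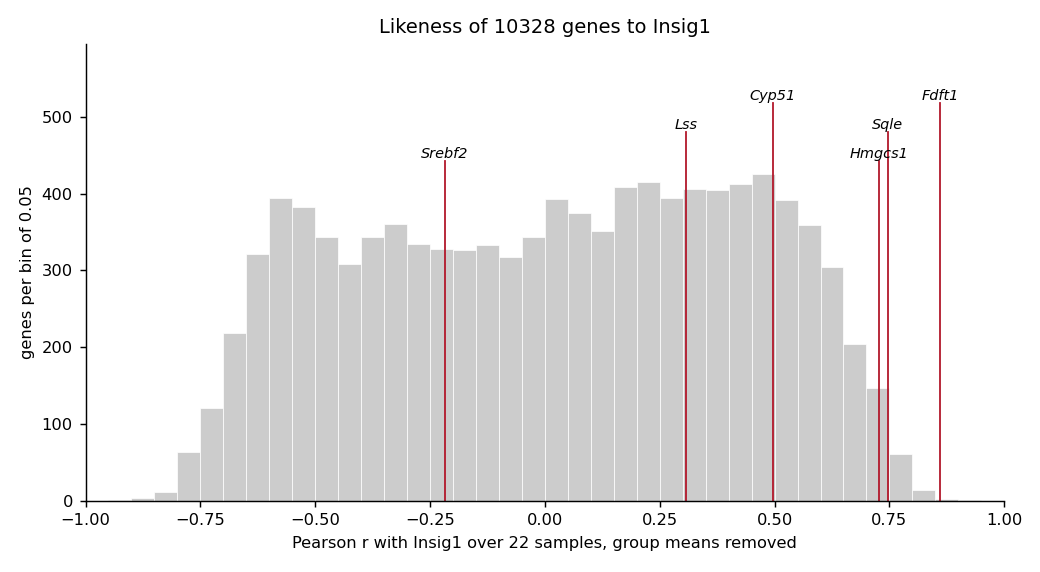
Number of genes (y axis) by Pearson r with Insig1 over 22 samples after removal of group means (x axis, bins of 0.05), with red lines for the 6 other members above 10 CPM. Fdft1, Sqle and Hmgcs1 lie in the upper tail, Cyp51 and Lss within the bulk, and Srebf2 (r = -0.218) below 0.

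The wider pathway was read from 59 further genes in 5 lists, all of which passed the filter on low counts in both sexes. None of the 59 was called in females or in males by edgeR, and DESeq2 called none. In females, 5 of 59 had an unadjusted p under 0.05 (3 lower, against 4.08% of all genes, and 2 higher, against 6.43%), 41 of 59 had a fold change below 0 against 50.9% of all genes, and 10 were lower in all 4 cages against 8.82% of all genes. In males, 0 of 59 had an unadjusted p under 0.05, against 0.658% of all genes in each direction, and 28 of 59 had a fold change below 0, against 51.4%. The medians were -0.03 in females and 0.002 in males.

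Of 16 further enzymes of sterol synthesis, 11 had a fold change below 0 in females (median -0.04, or -0.02 with the exon length correction) and 3 in males (median 0.02). In females, Acat2, the thiolase that supplies acetoacetyl-CoA, had the smallest p among those below 0 (log2 fold change -0.13 ± 0.052, SE, n = 4 per group, lower in all 4 cages). Ggps1, which makes geranylgeranyl diphosphate on a side branch, had the smallest p among those above 0 (0.04 ± 0.040). In males, the genes by the same rule were the mevalonate kinase Mvk (0.13 ± 0.081) and the phosphomevalonate kinase Pmvk (-0.01 ± 0.046).

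Among 11 genes of SREBP control, Srebf1, the gene of the related factor SREBP1, was at 44.9 ± 1.69 CPM in dominant females and 49.8 ± 3.29 CPM in their submissive mates, which gave a fold change on the log2 scale of -0.15 ± 0.051 (SE), lower in all 4 cages. In males it was at 58.8 ± 3.63 and 58.1 ± 3.72 CPM (0.02 ± 0.049). Scap, the escort, had -0.02 ± 0.041 in females and -0.03 ± 0.056 in males. Insig2, the second retention protein, had -0.01 ± 0.044 in females, at 51.6 and 51.9 CPM, and -0.03 ± 0.039 in males. Erlin1, an endoplasmic reticulum protein that binds INSIG1 and SREBP complexes, had 0.11 ± 0.058 and was higher in the dominant female of all 4 cages. In males the smallest p above 0 was that of Rnf139 (0.06 ± 0.039), a ubiquitin ligase of the same membrane, and below 0 that of Mbtps2 (-0.05 ± 0.061), the site-2 protease that releases SREBP.

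Of 11 genes of sterol uptake and transport, 6 had a fold change below 0 in females and 5 in males. The lipoprotein receptor Lrp1 had a log2 fold change of 0.11 ± 0.045 (SE) in females and -0.11 ± 0.087 in males. Stard4, a carrier of cholesterol through the cytosol, was -0.12 ± 0.066 in females and 0.06 ± 0.048 in males. Osbp, an oxysterol-binding protein, was named after its values were seen because the female groups did not overlap (78.83 to 82.95 CPM in dominant, 75.35 to 77.33 CPM in submissive mice, as 2.93% of all genes were higher), with 0.08 ± 0.036. None of these passed the test in either sex, and with the exon length correction Lrp1 in females was at 0.02.

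Of 11 genes of fatty acid synthesis, which SREBP1 mainly controls, 10 had a fold change below 0 in females and 9 in males, with medians of -0.05 and -0.03. The values were small. ATP citrate lyase (Acly) had -0.06 ± 0.030 in females and 0.02 ± 0.035 in males, the elongase Elovl6 had 0.03 ± 0.040 in females (-0.002 with the exon length correction), and Acss2, an acetyl-CoA synthetase, had -0.08 ± 0.043 in males. Of 10 genes of efflux and turnover, Apoe, which encodes the main apolipoprotein of the brain, was at 1069 ± 32.9 CPM in dominant females and 1128 ± 24.7 CPM in their submissive mates (-0.08 ± 0.030, or -0.05 with the exon length correction, lower in all 4 cages), and at 1164 and 1147 CPM in males (0.02 ± 0.049). Abcg4, a sterol exporter of neurons and glia, was higher in dominant females without overlap of the groups (22.03 to 23.7 against 19.4 to 21.4 CPM, 0.12 ± 0.060), as were 2.93% of all genes. Soat1, which esterifies cholesterol, had -0.05 ± 0.048 in males.

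Cell type markers were read beside these values. Oligodendrocyte, precursor, astrocyte, neuron, microglia and endothelium markers were detected in every hemisphere, and no marker gene was called in either sex by edgeR. Summed oligodendrocyte markers, which mark the cells that make myelin, were at 5311 to 6377 CPM in dominant females and 5326 to 6034 CPM in their submissive mates, with overlapping ranges. Summed astrocyte markers were at 2865 to 3132 and 2837 to 3215 CPM. Choroid plexus markers, at 672.1 to 836.1 CPM in dominant females and 646.3 to 984.6 CPM in their submissive mates, had 3 of 4 genes lower in dominant females at an unadjusted p under 0.05 (4.08% of all genes were), and in males 2 of 4 higher in dominant mice (0.658% of all genes were). The 3 liver markers summed to at most 0.542 CPM, and the 4 haemoglobin genes were listed at 0 in every sample. These 0 counts are not read as an absence of blood, because the handling of multiply mapped reads is not given. The part of these cell types in the Insig1 difference was not tested.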

How the data were processed

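Total RNA of 22 right brain hemispheres was analysed in 4 groups, with groups and replicate numbers from the sample labels. Per the submitters' notes and the study's methods, reads were trimmed by cutadapt 1.15 and bbduk and aligned to mm10 by STAR 2.6.0a. The authors deposited raw counts per gene from featureCounts 1.6.2, without normalization. Gene length and coordinates came from the deposited tables. The strand setting and the handling of multiply mapped reads are not given in the sources used here.

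CPM and RPKM were computed from these counts with TMM library sizes (edgeR 4.0.16, R 4.3.3). Genes passed edgeR's filter at a minimum count of 10 and a total of 15. The main test was the quasi-likelihood test of edgeR, fitted for each sex separately with rank as its single term, Benjamini-Hochberg adjustment over all genes tested and a threshold of 0.05; fold changes are dominant minus submissive. Correlations used log2 CPM with a prior count of 2 and 100000 permutations, or every permutation with 8 or fewer samples. The alternatives were DESeq2 1.42.0, its size factors, no expression filter, a mean count of at least 100, the robust prior, a block for the cage (replicate number), corrections for exon length or GC content (loess span 0.3), one fit of all 22 samples, and the omission of each sample in turn. The marker correlations without dominant male 1 were chosen after seeing the data. The tests were tested on simulated data.

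The 8 members, the pathway and marker lists and the rule for named genes were chosen with earlier results of these data known. Besides the members, the text names Srebf1, Scap and Insig2, the gene of each list with the smallest p in each direction and sex, and the 5 genes most like Insig1. Osbp lies outside this rule and was named after its values were seen. Further genes set by this rule are not reported here. RefSeq promoter sequences matched 6 of the 8 members by symbol.

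Between 12403943 and 15805170 reads were counted per male (median 14190563) and between 14967458 and 16488762 per female (median 15874463), and 0 counts leave up to 3 possible. All 54 pairs of samples within groups differed by more than sampling noise (mean chi-square per gene 1.82 to 16.6). Female pairs had 1.82 to 3.63. Submissive males had 1.88 to 4.32 within cages 1 to 4 or within cages 5 to 7, and 5.41 to 9.63 across these sets. Dominant males other than dominant male 1 had 2.09 to 6.15 within the sets and 7.32 to 13.9 across them. Pairs with dominant male 1 had 7.64 to 16.6. Nothing says that repeat samples are other than separate mice. The replicate numbers pair the samples, because library names give mice of 1 number the same cage (for female replicates 3 and 4 the same group label, taken here as a shared cage) and the study sacrificed cage mates together. This rests on the labels and, for those 4 females, on that assumption. Across genes, deviations from group means correlated on average at 0.177 between male cage mates (-0.0294 between mice of different cages) and at 0.0239 between female cage mates (-0.00797).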

Additional observations from a re-analysis of the deposited data

Results flagged for a closer look

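Samples far from the rest of their group were sought for each of the 8 genes in each of the 4 groups, 32 groups of values in all, of which 4 had such a sample. Chance gives about 1 in 20. Cyp51 was at 115.9 CPM in dominant female 4, against 106.3 to 106.9 CPM in the other 3 dominant females. Hmgcs1 was at 374.9 CPM in dominant male 2, against 400.5 to 419.2 CPM in the other 6 dominant males. Sqle was at 76.5 CPM in the same mouse, against 84.7 to 90.5 CPM. Fdft1 was at 85.1 CPM in submissive male 5, against 76.9 to 80.4 CPM in the other 6 submissive males.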

How the results depend on the processing

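Depth set the limit for Idi1 and 4 mice per group that for all female values. All fold changes of the 8 genes kept their direction in females under every alternative run, but not their size: with 1 sample left out, Lss ran from -0.12 (without dominant female 4) to -0.02 (dominant female 3), Srebf2 from 0.05 (dominant female 4) to 0.11, Cyp51 from -0.08 (dominant female 4) to -0.02 (submissive female 4), Sqle from -0.14 (dominant female 4) to -0.04 (submissive female 2), Fdft1 from -0.16 (dominant female 4) to -0.06 (submissive female 4), Hmgcs1 from -0.15 (dominant female 4) to -0.07 (dominant female 3), Idi1 from -0.24 (dominant female 4) to -0.13 (dominant female 3) and Insig1 from -0.23 to -0.16. The count of genes called in females, 14, was 79 with DESeq2, 84 with no expression filter, 2 at a mean count of at least 100, 36 with the replicate block, 0 with the exon length correction, 25 with the GC correction, 8 and 46 with these corrections and the block together, and 0 with all 22 samples in one fit, and it ran from 0 to 77 when 1 sample was left out (77 without dominant female 2, 27 without submissive female 2, 7 without dominant female 1, 3 without dominant or submissive female 4, 1 without dominant female 3 and 0 without submissive female 1 or 3). The causes were not tested. Members called in females, 0, became 1 (Insig1) with DESeq2, with no expression filter, with the replicate block and with the block and GC correction together, and stayed 0 in all other fits, including all that left out a sample. The block changed no call of a member in males. In males, Srebf2 ran from -0.041 to 0.051 and Idi1 from -0.044 to 0.0069 with 1 sample left out, crossing 0 without either mouse of cage 1 and, for Srebf2, of cage 5; Insig1 ran from 0.021 to 0.083, Lss from 0.0088 to 0.085, Fdft1 from 0.0040 to 0.051, Sqle from 0.0031 to 0.041, Hmgcs1 from 0.013 to 0.046 and Cyp51 from 0.031 to 0.064. No member was called. The correlations with Insig1 of Hmgcs1, Sqle and Fdft1 stayed positive but did not pass with cage means removed (the replicate block; 0.737, 0.764 and 0.698), within cages 1 to 4 (0.681, 0.846 and 0.738) or within cages 5 to 7 (0.82, 0.653 and 0.875), where fewer samples enter. That of Idi1 was -0.594 within cages 5 to 7 and -0.245 to 0.183 with 1 male left out, that of Lss -0.185 to 0.376 and that of Srebf2 -0.515 to -0.194. By Spearman correlation, 3 of the 5 genes nearest to Insig1 remained among the nearest 5.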
